A study of Mus musculus with 16 samples.

Results

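The comparison described here set 5 arrays labelled carcinoma against 6 labelled WT, all hybridised with epithelial RNA of mouse ileum, where the small intestine ends. These 11 arrays were chosen by their sample titles out of 16 in the series, and the 5 adenoma arrays entered only where carcinoma was set against adenoma. The genes were taken from the 10833 of 12488 probe sets (groups of short oligonucleotides that read 1 transcript) that were no Affymetrix controls and carried a single gene symbol. Laser capture lifted the cells out of the tissue, and the little RNA this gives was amplified in 2 rounds before it was labelled. The 3 groups are known only as WT, adenoma (a benign tumour) and carcinoma (an invasive one). The sources used here do not give genotype, age, treatment, number of animals, the meaning of a prefix common to the titles or how regions were picked for capture.

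The ileal lining renews itself from crypts, where Wnt signals keep stem cells dividing, and its daughter cells become absorptive enterocytes or mucus-making goblet, antimicrobial Paneth and hormone-making enteroendocrine cells. Enterocytes carry a brush border of digestive enzymes and transporters and burn, export or detoxify much of what they absorb. An adenoma becomes a carcinoma when its cells pass the basement membrane, a sheet of laminins and type IV collagen, which matrix proteases can cut. Clusterin and annexins are known as genes of the fetal gut and of epithelium that is repairing damage.

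The label of the tissue was checked against epithelial markers. The adhesion protein Epcam had intensities of 6486 to 12095 (median 9965) on the WT arrays and of 6296, 8875, 8695, 11309 and 9569 on carcinoma arrays 1 to 5. The groups overlapped, with a log2 difference of -0.10 ± 0.26, adjusted p = 0.848. E-cadherin (Cdh1, -0.26 ± 0.24, adjusted p = 0.563) and the keratin Krt8 (0.20 ± 0.54, adjusted p = 0.852) likewise did not pass the test. The gut transcription factor Cdx2 also overlapped, at 35.3 to 163 (median 134) in WT and 48.3, 61.5, 58.1, 123 and 116 in carcinoma. By limma at an adjusted p of 0.05, 1 of 17 epithelial identity genes tested rose (Tmprss2) and 2 fell (Fabp2 and Krt20). Over all genes tested the shares were 3.49% and 4.22%. At an unadjusted p of 0.05, 2 of the 17 were higher and 7 lower. Of the 17, 13 differed downwards, with a median of -0.37. The summed intensity of 18 such genes ran from 111114 to 230747 in WT and from 66233 to 137963 in carcinoma, with overlap. Control measures differed between the groups. The mean log2 signal of RNAs spiked into every hybridisation was 13.74 ± 1.003 in WT and 12.23 ± 0.499 in carcinoma (SD, n = 6 and 5, exact permutation p = 0.0238, adjusted over 5 measures 0.0298). WT arrays 1, 2, 4 and 5 lay above every carcinoma array. Gapdh read near its 3' end against its 5' end gave a log2 ratio of 4.52 ± 0.39 in WT and 5.70 ± 0.58 in carcinoma (exact p = 0.00433, adjusted 0.0216). For beta-actin it was 6.25 ± 0.17 and 6.04 ± 0.44 (exact p = 0.297). Since the RNA was amplified in 2 rounds, these ratios cannot be read as RNA integrity alone. The log2 Gapdh signal at the 3' end ran from 11.9 to 13.8 in WT and from 13.3 to 14.9 in carcinoma. At the 5' end it ran from 7.29 to 8.96 and from 7.85 to 9.64. The median signal was 204 ± 23.3 in WT and 164 ± 23.2 in carcinoma (exact p = 0.0195, adjusted 0.0298), and the 25th percentile 58.3 ± 9.55 and 41.6 ± 10.3 (exact p = 0.0238, adjusted 0.0298). These tests were two-sided, and 462 regroupings allow no p under 0.00216. The spike-in call was lost without WT 1, 2, 4 or 5 or carcinoma 1, 2 or 3, the Gapdh call without WT 1, 2, 4 or 5, and the calls of the median and the percentile without WT 1, 2, 4 or 5 or carcinoma 1 or 2 (adjusted p up to 0.0655). Their part in the results was not tested beyond the fits named with each group of genes.

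**Figure D1:**
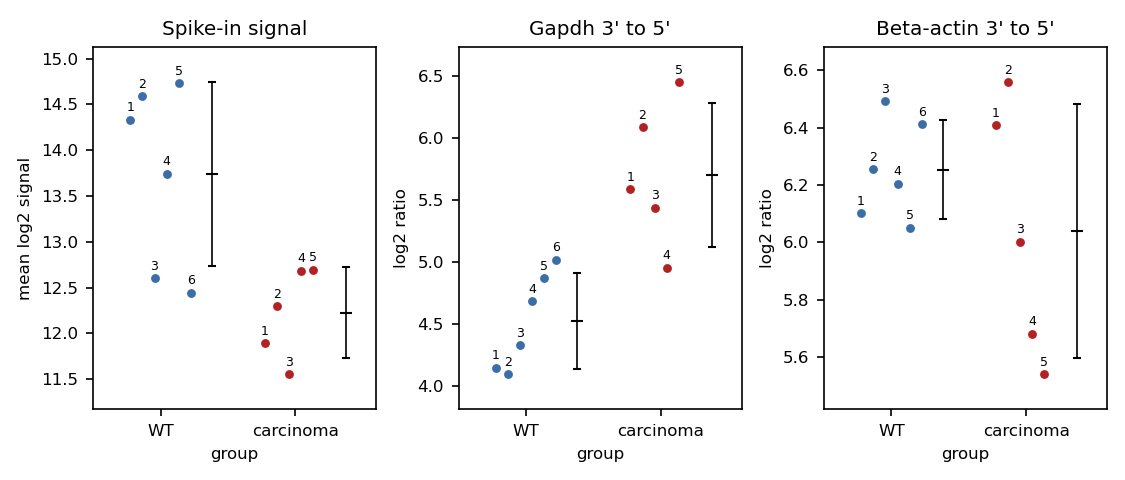
Control measures of the 6 WT and 5 carcinoma arrays: mean log2 spike-in signal (left), log2 ratio of 3' to 5' signal for Gapdh (middle) and beta-actin (right), with array numbers and the mean ± SD beside the points. WT arrays 1, 2, 4 and 5 lie above all carcinoma arrays in spike-in signal, and carcinoma 4, at 4.95, is the only carcinoma array whose Gapdh ratio falls within the WT range.

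Genes of absorptive and mucus-making cells were among those lower in carcinoma epithelium, and a secreted chaperone, complement and acute phase genes, annexins, proteases and laminin chains among those higher. Of 8251 genes with a probe set, 7084 had an intensity above a floor of 49.2 on at least 5 of the 11 arrays and were tested. Lower values were set to that floor, so fold changes of dim genes are understated. Where all arrays of a group lay at the floor, that group had no spread left, and the p-value may be too small. This holds for Tnfrsf19 and Ccl2 in WT and for Slc27a2 in carcinoma. At an adjusted p of 0.05 (limma's moderated test with Benjamini-Hochberg adjustment over all genes tested), 546 genes changed, 7.71% of those tested. Of these, 247 (3.49%) were higher and 299 (4.22%) lower in carcinoma, 235 and 288 of them by at least 2-fold. The counts of gene lists given below are to be read beside these shares of 3.49% and 4.22%. Without any overlap between the arrays of the groups, 232 genes (3.27%) were higher and 239 (3.37%) lower. No label says which animal an array came from, and if arrays of a group shared an animal, these and all later p-values are too small. Fewer cells of a type and less RNA per cell cannot be told apart in such samples.

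The split between higher and lower depended on how arrays were scaled. With the deposited scale, 45.2% of the 546 genes were higher, and all genes tested had a median log2 difference of -0.12. After quantile normalization 287 were higher and 208 lower (58.0% higher, median 0.00), and with array medians aligned 447 and 177 (71.6% higher, median 0.17). The count of 546 became 182 without WT 1, 2, 4 and 5 together, the arrays of high spike-in signal, 186 with the spike-in signal in the fit and 61 with the Gapdh ratio in the fit. Of the 546 genes, 167, 168 and 57 stayed past the threshold in these fits, and none changed sign.

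**Figure D2:**
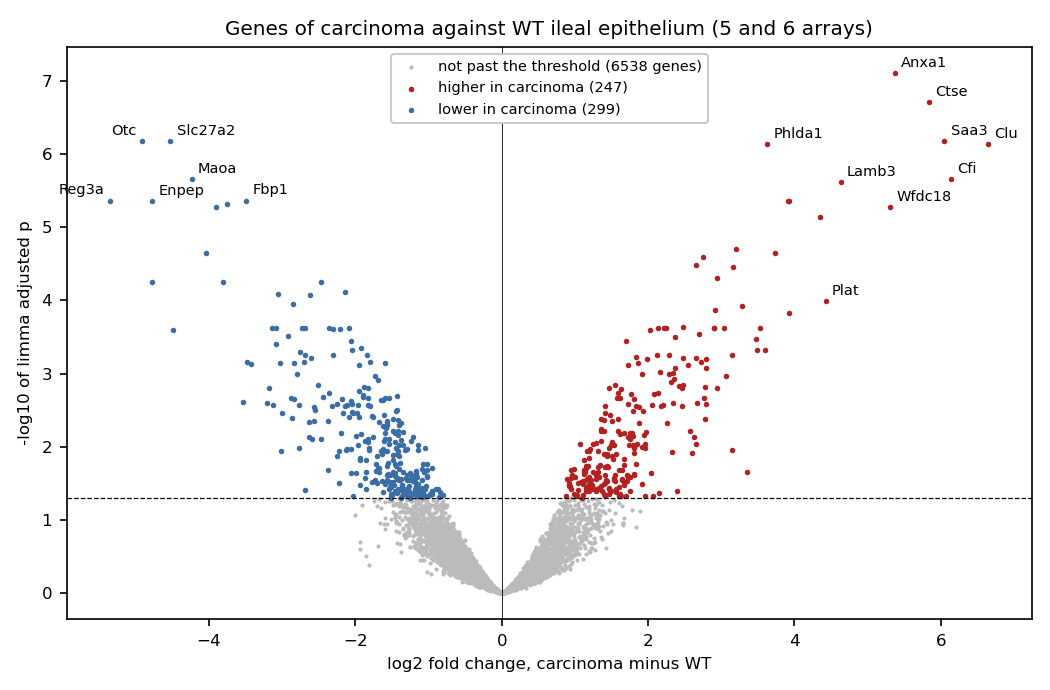
Each point is 1 of 7084 genes: the log2 difference, carcinoma minus WT, on the horizontal axis and the -log10 of the limma adjusted p on the vertical axis, with the threshold of 0.05 dashed. The 247 higher genes reach 6.65 (Clu) and the 299 lower genes -5.35 (Reg3a); genes with names have the largest changes or smallest p.

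Genes known from fetal and regenerating gut were among the largest rises. Of 17 tested (21 of 30 listed had a probe set), 8 rose and 0 fell, with a median log2 difference of 1.37 against -0.12 for all genes. As with every list here, its members were chosen with earlier results of these data known. Its count and median are therefore a description and no independent support for a theme. Clusterin (Clu), a secreted chaperone, had intensities of 24.8 to 234 (median 66.9) in WT and of 7214, 7240.3, 5013, 18912 and 13972 in carcinoma. Every carcinoma array lay far above every WT array, and the rise was 100.3-fold (6.65 ± 0.48, adjusted p = 7.25e-07). The probe set used is of a kind that can share probes with related transcripts. A second Clu probe set rose by 3.93 ± 0.48. Annexin A1 (Anxa1), a calcium-dependent membrane-binding protein that dampens inflammation, stood at 397 to 659 (median 478) in WT and at 13430.0, 20578, 18104, 34309.7 and 22620.0 in carcinoma. Its groups were tight and far apart, with a 41.3-fold rise (5.37 ± 0.28, adjusted p = 7.8e-08), and all 3 of its probe sets rose. The related annexins Anxa8 and Anxa3 rose by 3.92 ± 0.34 and 3.91 ± 0.33, and Anxa5 by 1.98 ± 0.29. Cathepsin E (Ctse), an aspartic protease of the stomach and of antigen-presenting cells, had 18 to 129 (median 31.6) in WT and 2348, 2833, 2489.8, 6468 and 4029.5 in carcinoma. That is a 57.02-fold rise (5.83 ± 0.35, adjusted p = 1.93e-07) without overlap, but only 1 of its 3 probe sets rose. The others differed by -0.05 and 0.64 and did not pass, and the mean of all 3 rose by 2.14. The gap junction gene Gja1 rose by 1.74 ± 0.37 on 1 of 2 probe sets. Of the list, 6 rises passed without WT 1, 2, 4 and 5 together and 5 with the Gapdh ratio in the fit.

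Other large rises were spread over secreted and signalling proteins. Wfdc18, a secreted protein with a whey acidic protein domain, had 42.6 to 333 (median 119) in WT and 4637, 2978, 2297, 6479 and 7192 in carcinoma. No arrays overlapped, and the difference was 39.7-fold (5.31 ± 0.47, adjusted p = 5.32e-06). Ggh, the lysosomal enzyme that trims folate, rose 20.3-fold (4.35 ± 0.40), with carcinoma 1 highest at 4478 and carcinoma 5 lowest at 863. Phlda1, a protein with a pleckstrin homology-like domain, had 206 to 415 (median 324) in WT and 3337, 4996, 4328, 3193 and 3692 in carcinoma. The groups did not overlap, and the rise was 12.4-fold (3.63 ± 0.26, adjusted p = 7.25e-07). The forkhead transcription factor Foxq1 rose 12.1-fold (3.60 ± 0.51), with WT 1, at 379, nearest to the lowest carcinoma array, at 718. Its call was lost with the Gapdh ratio in the fit (3.97, adjusted p = 0.0523).

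**Figure D3:**
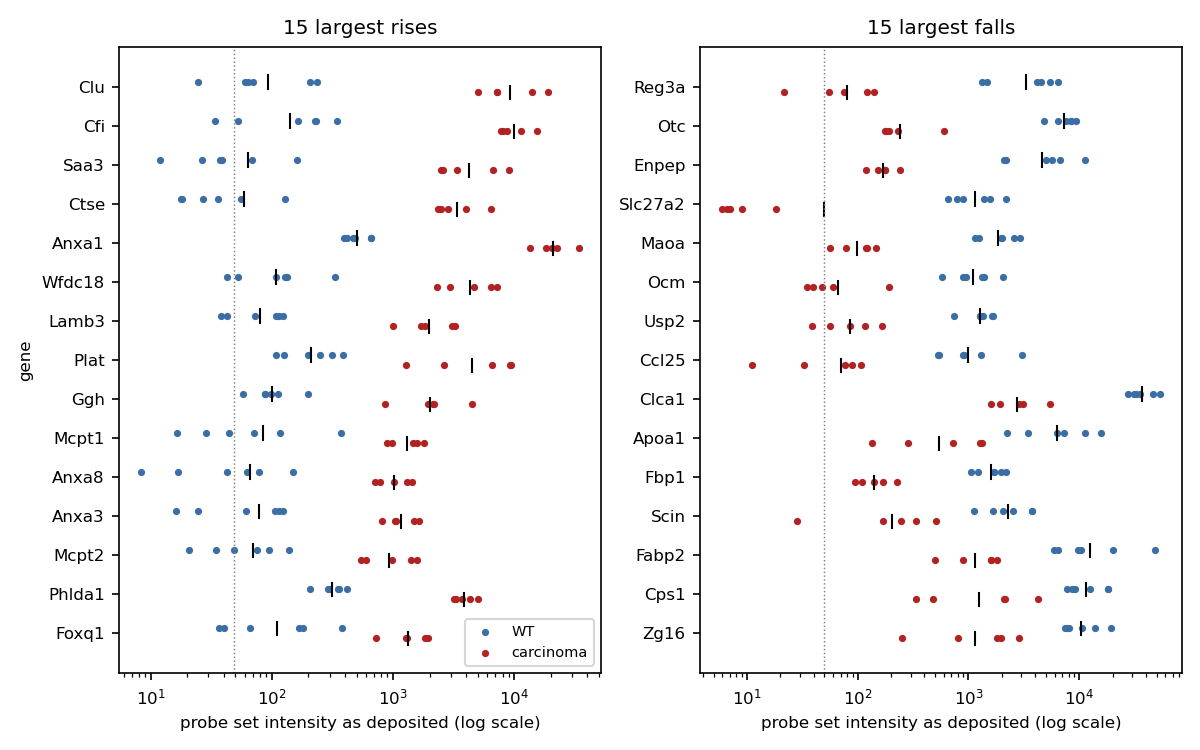
Deposited probe set intensities, on a log scale, of the 15 genes with the largest rises (left) and the 15 with the largest falls (right), for 6 WT arrays (blue) and 5 carcinoma arrays (red). Black bars are means of log2 values after the floor of 49.2 (dotted line) was applied; the groups overlap in none of the 30 genes, and Slc27a2 lies below the floor on all 5 carcinoma arrays.

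Several proteases that cut the extracellular matrix rose. Of 20 matrix metalloproteinases, related proteases and inhibitors tested, 7 rose and 1 fell, with a median of 0.35. Mmp7, an epithelial protease made by Paneth cells and a known Wnt target, had 521 to 2536 (median 1327) in WT and 8221, 7136, 4567, 9948 and 8625 in carcinoma. The lowest carcinoma array, 4567, lay above the highest WT array, and the rise was 6.63-fold (2.73 ± 0.41, adjusted p = 0.000692). The stromelysin Mmp10 had 24 to 135 (median 93.7) in WT and 1177, 396, 364, 1022 and 368 in carcinoma (2.66 ± 0.39, adjusted p = 0.000609). Carcinoma 1 and 4 stood highest, and the same arrays were highest for the collagenase Mmp13. Mmp13 had 14.6 to 103 (median 97.2) in WT and 1653, 282, 404, 1384 and 263 in carcinoma (2.77 ± 0.48, adjusted p = 0.00213). The membrane-bound Mmp14, which activates other metalloproteinases, rose by 1.73 ± 0.31. The shedding proteases Adam8, Adam9 and Adam10 rose by 1.51 ± 0.34, 1.36 ± 0.37 and 1.23 ± 0.32, but Adam9 lost its call without WT 3 or 4 or carcinoma 1, 2, 3 or 4, and Adam10 without WT 2 or 4 or carcinoma 1, 3 or 4. A second Adam10 probe set differed by 0.44. The fall was in Adamdec1 (-2.03 ± 0.59, adjusted p = 0.0473), a protease of gut macrophages and stroma. It overlapped between groups and passed only with all arrays, or without WT 5 or carcinoma 1. Of the list, 3 rises passed without WT 1, 2, 4 and 5 together and 2 with the Gapdh ratio in the fit.

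Of 23 genes of plasminogen activation and cathepsins, 5 rose and 0 fell, with a median of 0.47. Tissue plasminogen activator (Plat), which turns plasminogen into plasmin, had 107 to 388 (median 225) in WT and 6518, 1267, 2616, 9318 and 9187 in carcinoma. The carcinoma arrays themselves spread widely, with carcinoma 2 lowest, but lay above all WT arrays (21.6-fold, 4.43 ± 0.52, adjusted p = 0.000102). The lysosomal cathepsin Ctsl had 23.5 to 341 (median 274) in WT and 2536, 1551, 2516, 1296 and 779.5 in carcinoma. Its rise was 7.67-fold (2.94 ± 0.49, adjusted p = 0.00158). The urokinase receptor Plaur had 16.2 to 155 (median 33.05) in WT and 57.8, 385, 180.4, 305 and 403 in carcinoma. Carcinoma 1, at 57.8, lay within the WT range, and the difference of 1.75 ± 0.49, adjusted p = 0.0409, held only with all arrays or without WT 4 or carcinoma 1. The membrane serine protease Tmprss2 rose by 1.19 ± 0.30 and also overlapped, and its call was lost without WT 2 or 4 or carcinoma 1, 2, 3 or 4. The count of 5 became 3 without WT 2, carcinoma 2 or carcinoma 4, 3 without WT 1, 2, 4 and 5 together and 2 with the Gapdh ratio in the fit.

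Mmp7, Mmp10, Mmp13 and Plaur share a letter match in front of their transcription starts, shown here because the members rose together. Of the 12 genes that rose in the lists of both paragraphs above, 9 had a window and these 4 held the match, while Mmp14, Adam8, Adam10, Ctsl and Tmprss2 did not. Mmp7 had 2 windows, of which 1 held it. Mmp7, Mmp10 and Mmp13 are related genes that lie near each other on chr9, so their matches are not independent cases. The windows are the last 100 bases before the RefSeq start on assembly GRCm38.p6, plus strand for each, and capitals mark TGANTCA, the letters bound by AP-1 factors such as Fos and Jun.
Mmp7, chr9:7691990-7692089: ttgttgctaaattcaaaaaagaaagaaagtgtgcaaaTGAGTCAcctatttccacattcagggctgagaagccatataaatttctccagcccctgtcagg
Mmp10, chr9:7502242-7502341: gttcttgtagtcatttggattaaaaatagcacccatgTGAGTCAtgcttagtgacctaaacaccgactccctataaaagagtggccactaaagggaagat
Mmp13, chr9:7272414-7272513: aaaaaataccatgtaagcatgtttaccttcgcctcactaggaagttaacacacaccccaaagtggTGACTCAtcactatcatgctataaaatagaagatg
Plaur, chr7:24462383-24462482: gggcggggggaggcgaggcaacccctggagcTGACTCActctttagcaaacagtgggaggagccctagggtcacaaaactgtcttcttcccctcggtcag
The match begins 63, 63, 35 and 69 bases before the start. Over the 250 bases before the start, on both strands, TGANTCA was found in 10.2% of 245 windows of genes higher in carcinoma, 6.21% of 306 windows of genes lower, 5.39% of 7309 windows of all genes tested and 6.75% of all 32851 windows in the table. A letter match is a description and no evidence of binding. Of the 247 higher genes, 194 had a window, and Clu, Cfi and Ctse had none. CTTTGAT, the letters of the Wnt effectors TCF and LEF, was in 3.67% of the windows of higher genes, 2.29% of lower genes and 2.35% of all genes tested.

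Chains of the basement membrane protein laminin-332 rose. Of 29 laminin and integrin genes tested, 5 rose and 1 fell, with a median of 0.02. Lamb3, the beta chain of laminin-332, on which epithelial cells sit and migrate, had 38.3 to 123 (median 90.1) in WT and 1839, 1711, 1003, 3065 and 3222 in carcinoma. All carcinoma arrays were above all WT arrays, a 24.8-fold rise (4.63 ± 0.37, adjusted p = 2.42e-06), and its second probe set rose by 3.02 ± 0.53. Lama3, the alpha chain of the same trimer, had 32.3 to 314 (median 75.6) in WT and 532, 490.2, 370.0, 1217 and 986 in carcinoma. WT 4, at 314, came nearest to the carcinoma arrays (2.79 ± 0.50, adjusted p = 0.00258). Lama5 rose by 2.94 ± 0.32 on 1 of 2 probe sets, the other differing by 0.93 without passing. The integrin chain Itgav rose by 1.72 ± 0.26 on 1 of 3 probe sets, and the tetraspanin Cd9 by 1.44 ± 0.34, a call lost without carcinoma 3 or 4. Lama2, a chain of muscle and mesenchymal basement membrane, fell by 1.49 ± 0.34, a call lost without carcinoma 2. Of the list, 3 rises passed without WT 1, 2, 4 and 5 together and 3 with the Gapdh ratio in the fit.

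Known Wnt targets and stem cell genes rose in part. Of 26 Wnt targets tested, 6 rose and 1 fell, with a median of 0.20. Besides Mmp7, Jun and Plaur, these included the secreted phospholipase Pla2g2a, which had 169.6 to 666 (median 389.6) in WT and 3091, 4381, 1743, 8262 and 9076 in carcinoma. Its carcinoma arrays were all above WT, with arrays 4 and 5 highest (11.6-fold, 3.54 ± 0.46, adjusted p = 0.000238). Id2, an inhibitor of helix-loop-helix factors, rose by 1.88 ± 0.37. Tcf4, which here is the E-box factor E2-2 and not the Wnt effector Tcf7l2, rose by 1.15 ± 0.31. The fall was in the nitric oxide synthase Nos2 (-1.37, adjusted p = 0.0497), lost when any array but WT 5 was left out. The call for Tcf4 was lost without WT 2, 3, 4 or 5 or carcinoma 1 or 4. Among 17 stem cell genes, 3 rose and 1 fell, with a median of 0.86. The crypt marker Prom1 had 444 to 1179 (median 686) in WT and 8612, 7487, 6081, 8268 and 4107 in carcinoma. That was 9.23-fold higher without overlap (3.21 ± 0.32, adjusted p = 1.97e-05), on both probe sets. The surface protein Cd24a had 1790.4 to 4769.7 (median 2244) in WT and 20625, 13008, 8264, 17418 and 13785 in carcinoma (2.48 ± 0.31, adjusted p = 0.000231). The receptor Tnfrsf19 was below the floor on all 6 WT arrays and at 152, 77.7, 64.1, 114 and 329 in carcinoma, at least 2.5-fold higher, a call that held only with all arrays or without carcinoma 2 or 3. The water channel Aqp1 fell by 1.40 ± 0.34 on 1 of 2 probe sets and lost its call without carcinoma 1, 3 or 4. Its other probe set differed upwards, and the mean of both, at -0.36, did not pass. In the fit with the Gapdh ratio 0 rises passed among Wnt targets and 1 among stem cell genes, and 2 of each passed without WT 1, 2, 4 and 5 together. In the Gapdh fit the differences themselves were 3.07 (adjusted p = 0.10) for Pla2g2a, 2.40 (0.16) for Mmp7, 2.18 (0.21) for Jun and 2.59 (0.061) for Id2.

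Several innate defence and inflammatory genes rose, and some chemokines of resting gut fell. Of 40 tested, 11 rose and 4 fell, with a median of 0.64. The acute phase protein Saa3 had 11.9 to 163 (median 38.5) in WT and 2588, 6617, 3369.8, 9089.7 and 2497 in carcinoma. WT 2 was the highest WT array at 163, still far under every carcinoma array (66.2-fold, 6.05 ± 0.42, adjusted p = 6.67e-07). Complement factor I (Cfi), a protease that inactivates C3b and C4b, had 33.7 to 342 (median 197) in WT and 15363, 8720.0, 8085, 7809.5 and 11402 in carcinoma. No array overlapped (70.5-fold, 6.14 ± 0.48, adjusted p = 2.2e-06). The neutrophil attractant Cxcl1 had 5.7 to 252 (median 54.2) in WT and 2078, 613, 789, 1399.9 and 392 in carcinoma. The groups lay apart, with carcinoma 1 highest (11.2-fold, 3.49 ± 0.49, adjusted p = 0.000474). The interleukin-1 receptor antagonist Il1rn rose by 2.28 ± 0.33 and lactoferrin (Ltf) by 2.46 ± 0.44. The monocyte attractant Ccl2 was under the floor on all 6 WT arrays and at 273, 417, 409.6, 1075 and 52.7 in carcinoma, at least 6.2-fold higher (2.63 ± 0.55, adjusted p = 0.00745). It was tested only through its carcinoma arrays, and the floor left its WT arrays no spread. Carcinoma 5 was barely over the floor for this gene, and without it the log2 difference was 3.27. Ccl25, the chemokine that draws lymphocytes to the small intestine, had 534 to 3032 (median 906) in WT and 108, 88, 32.7, 76.4 and 11.2 in carcinoma. It fell 14.03-fold without overlap (-3.81 ± 0.42, adjusted p = 5.53e-05). Ccl6 fell by 1.38 ± 0.27. The 4 falls became 2 without WT 2, WT 4, carcinoma 1, carcinoma 3 or carcinoma 5. Without WT 1, 2, 4 and 5 together 7 rose and 1 fell, and with the Gapdh ratio in the fit 4 rose and 1 fell.

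Stress and growth signalling genes rose singly. Of 30 glycolysis and hypoxia genes, 4 rose and 0 fell, with a median of 0.17. Hif1a, the oxygen-regulated transcription factor, had 442 to 2326 (median 1862) in WT and 19789, 20485, 11703, 8641 and 5029 in carcinoma. Carcinoma 1 and 2 were highest and carcinoma 5 lowest, all above WT (8.34-fold, 3.06 ± 0.48, adjusted p = 0.00107). The glycolytic enzyme Pkm (1.81 ± 0.45), the stress protein Ddit4 (1.42 ± 0.37) and the glucose transporter Slc2a1 (1.63 ± 0.47) also rose, with overlapping arrays. The count of 4 became 1 without carcinoma 5, and 2 without WT 3, WT 5 or carcinoma 2, 3 or 4. Of 32 AP-1 and immediate early genes, 4 rose and 0 fell, with a median of 0.15, and 2 fell without WT 5. The AP-1 subunit Jun had 86.8 to 200.5 (median 122) in WT and 1338, 222, 412, 591 and 494 in carcinoma (1.95 ± 0.40, adjusted p = 0.00689). Its groups did not overlap, and carcinoma 1 was highest. The AP-1 partner Fos rose by 1.81 ± 0.45 on 1 of 2 probe sets, with overlap, and lost its call without WT 2, carcinoma 2 or carcinoma 3. Its other probe set differed downwards, and the mean of both, at 0.65, did not pass. The nuclear receptor Nr4a1 rose by 1.96 ± 0.42. Of 30 TGF-beta and BMP genes, 3 rose and 1 fell, with a median of 0.01. The activin subunit Inhba rose by 1.67 ± 0.44, lost without WT 3, 4 or 6 or carcinoma 1, 3, 4 or 5, and the fall, in the ligand Tgfb2 (-1.30 ± 0.36), was lost without WT 1, 2 or 4 or carcinoma 1, 2, 4 or 5. Without WT 5 there were 2 falls. Follistatin (Fst), which binds activins, had 33.5 to 171 (median 78.5) in WT and 344, 436, 431, 470.2 and 436 in carcinoma. Carcinoma arrays 2 to 5 were nearly level and carcinoma 1 lower (2.36 ± 0.36, adjusted p = 0.00085). Among 21 genes of the EGF receptor family, 1 rose (4.76%), near the 3.49% over all genes tested. It was the feedback inhibitor Errfi1 (1.81 ± 0.39), on 1 of 2 probe sets. The other differed downwards, and the mean of both, at 0.42, did not pass. The list had a median of -0.10 that became 0.06 with array medians aligned. With WT 1, 2, 4 and 5 left out together, the rises that passed were 1 in glycolysis and hypoxia, 2 in AP-1, 2 in TGF-beta and BMP and 0 in the EGF receptor family, and with the Gapdh ratio in the fit 1, 0, 0 and 0. Hif1a differed by 3.75 (adjusted p = 0.048) in the Gapdh fit and lost its call with the spike-in signal in the fit (adjusted p = 0.101), and Fst differed by 2.34 (adjusted p = 0.12) in the Gapdh fit.

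The brush border had the lowest median of the 44 lists. Of 16 genes tested (31 listed, 18 with a probe set), 7 fell and 0 rose, with a median of -1.49. The 16 include Pmel, a pigment cell gene and no brush border gene (-1.06 ± 0.47, adjusted p = 0.192). It is not among the falls, but the number tested and the median include it. The aminopeptidase Enpep had 2097 to 11237 (median 5382) in WT and 119, 152, 175, 243 and 176 in carcinoma. No array overlapped (27.5-fold, -4.78 ± 0.41, adjusted p = 4.41e-06). Its second probe set differed by -0.26 and did not pass. The metalloendopeptidase subunit Mep1a had 868 to 1896 (median 1285) in WT and 384, 335, 242, 192 and 211 in carcinoma (-2.30 ± 0.30, adjusted p = 0.000244). The glucose transporter Slc5a1, which takes up glucose with sodium, had 986 to 6771 (median 1833) in WT and 377, 406, 405, 484 and 346 in carcinoma. Carcinoma arrays were nearly level while WT arrays spread widely (-2.52 ± 0.41, adjusted p = 0.00144). The peptidases Mep1b, Dpp4 and Anpep fell, differing by -3.01 ± 0.56, -1.54 ± 0.27 and -1.21 ± 0.34, and the fructose transporter Slc2a5 by -1.78 ± 0.33. The call for Anpep was lost without WT 1, 2, 3 or 4 or carcinoma 1, 2, 3 or 5, and a second Mep1b probe set differed by -1.15. Villin (Vil1), the actin bundler of microvilli, differed by -0.68 ± 0.26, adjusted p = 0.133. Of the list, 4 falls passed without WT 1, 2, 4 and 5 together and 1 with the Gapdh ratio in the fit.

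Some genes of lipid handling fell. Of 20 lipid absorption genes, 6 fell and 0 rose, with a median of -0.93, and 1 rose without WT 6 or carcinoma 1. Slc27a2, which takes up and activates very long chain fatty acids, had 659.7 to 2177 (median 1128) in WT and only 6, 7.1, 9.1, 6.6 and 18.4 in carcinoma. It lay under the floor on all 5 carcinoma arrays and was at least 23.1-fold lower (-4.53 ± 0.31, adjusted p = 6.67e-07). The intestinal fatty acid binding protein Fabp2 had 5965 to 47985 (median 10059.5) in WT and 886, 1820.0, 1599, 1585 and 502 in carcinoma. WT 1 was highest by far, and the groups did not overlap (10.8-fold, -3.43 ± 0.52, adjusted p = 0.000741). Apolipoprotein A1 (Apoa1), the protein of high density lipoprotein, had 2246 to 15678 (median 6786) in WT and 284, 1260.5, 724, 1336 and 134 in carcinoma. It fell 11.6-fold (-3.54 ± 0.62, adjusted p = 0.00242), a difference of -2.79 (adjusted p = 0.17) without WT 1, 2, 4 and 5 together and of -1.70 (0.54) with the Gapdh ratio in the fit. With that covariate Fabp2 differed by -1.79 (0.37). The fat-sensing receptor Ppara fell by 1.83 ± 0.30. Of 23 fatty acid oxidation and peroxisome genes, 3 fell and 0 rose, with a median of -0.47. Hadh, an enzyme of beta oxidation, fell by 1.65 ± 0.29. The other falls, Acaa1a and Pex11a, kept their calls in only 3 and 2 of the 11 fits that left out an array, and 1 gene of the list fell without WT 1, WT 3, WT 4, carcinoma 2, carcinoma 3 or carcinoma 4. Of 10 bile acid genes, 2 fell and 0 rose, with a median of -0.94, and 4 fell without WT 2. The basolateral bile acid exporter subunit Slc51a had 896 to 3178 (median 1276) in WT and 252, 156, 146, 227 and 97.9 in carcinoma (8.29-fold, -3.05 ± 0.35, adjusted p = 8.17e-05). WT 4 stood above the other WT arrays, and none overlapped. The apical pump Abcc2 fell by 1.93 ± 0.39. With WT 1, 2, 4 and 5 left out, 2 lipid absorption, 2 fatty acid oxidation and 1 bile acid falls passed, and with the Gapdh ratio in the fit 1, 0 and 1.

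Several enzymes and transporters of amino acids fell, and 2 enzymes rose. Of 23 amino acid and urea cycle genes, 7 fell and 2 rose, with a median of -0.36. Ornithine transcarbamylase (Otc), a mitochondrial enzyme that makes citrulline, had 4811 to 9385 (median 7929) in WT and 606, 191, 229.5, 176 and 180.1 in carcinoma. Carcinoma 1 was highest of its group and still under every WT array (30.1-fold, -4.91 ± 0.34, adjusted p = 6.67e-07). Cps1, the enzyme before it in the cycle, had 7702 to 18245 (median 10745) in WT and 4219, 2075, 2152, 482 and 339 in carcinoma. The carcinoma arrays ranged more than the WT arrays, with arrays 4 and 5 lowest (9.28-fold, -3.21 ± 0.57, adjusted p = 0.00252). Cps1 differed by -3.86 (adjusted p = 0.057) without WT 1, 2, 4 and 5 together and by -3.23 (0.19) with the Gapdh ratio in the fit. The cystine and amino acid transporter subunits Slc3a1 and Slc7a9 fell, differing by -2.73 ± 0.36 and -2.61 ± 0.38, and the glutamate transporter Slc1a1 by -3.08 ± 0.43. The mitochondrial arginase Arg2 fell by 3.14 ± 0.41 on 1 of 2 probe sets. The cytosolic arginase Arg1 rose instead. It had 35.7 to 154 (median 65.3) in WT and 291, 193, 283, 516 and 450.5 in carcinoma (2.14 ± 0.36, adjusted p = 0.00187). Odc1, which starts polyamine synthesis, rose by 0.96 ± 0.24 and lost its call without carcinoma 2 or 4. Fructose bisphosphatase (Fbp1) fell 11.3-fold (-3.496 ± 0.30). Of the amino acid list, 6 falls and 1 rise passed without WT 1, 2, 4 and 5 together, and 2 and 0 with the Gapdh ratio in the fit.

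Many detoxifying enzymes fell. Of 36 xenobiotic metabolism genes tested (56 listed), 15 fell and 1 rose, with a median of -1.07. Monoamine oxidase A (Maoa), which breaks down serotonin and other amines, had 1148 to 2925 (median 1983) in WT and 121, 148, 56.5, 119 and 78.6 in carcinoma. No arrays overlapped (18.9-fold, -4.24 ± 0.33, adjusted p = 2.2e-06). Of its 3 probe sets 2 were tested. The second of these differed by -0.84 and did not pass, and the mean of all 3 fell by 1.78. The glucuronosyltransferase Ugt2b5 had 374 to 884 (median 556) in WT and 145, 65.7, 69.7, 44.7 and 93 in carcinoma (-2.86 ± 0.34, adjusted p = 0.000111). The sulfotransferase Sult1d1 fell, differing by -2.62 ± 0.30 and the alcohol dehydrogenase Adh1 by -2.79 ± 0.44. The drug-oxidizing cytochrome Cyp3a11 had 169.9 to 3508 (median 496) in WT and 20.3, 161, 75.6, 113 and 21.7 in carcinoma (-2.78 ± 0.61, adjusted p = 0.0105). WT 1 stood far above the other arrays. The rise was in the glutathione transferase Gstm5 (1.28 ± 0.27), whose family has close copies, and 3 of its 4 probe sets were higher at an unadjusted p of 0.05. Of the list, 9 falls passed without WT 1, 2, 4 and 5 together and 3 with the Gapdh ratio in the fit.

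CAAAGTCCA, a form of the letters bound by the enterocyte factor HNF4, stood before 2 of these falling genes, shown as examples. It was absent from the windows of the large falls Reg3a, Otc, Enpep, Slc27a2, Maoa, Ocm, Usp2, Ccl25, Apoa1, Fbp1, Scin and Fabp2. Slc3a1 is shown on the plus and Cyp3a11 on the minus strand, as the last 150 bases before the RefSeq start on GRCm38.p6, with the match in capitals.
Slc3a1, chr17:85028197-85028346: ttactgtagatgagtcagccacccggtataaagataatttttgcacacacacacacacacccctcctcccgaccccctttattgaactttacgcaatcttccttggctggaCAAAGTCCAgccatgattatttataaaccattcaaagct
Cyp3a11, chr5:145879855-145880004: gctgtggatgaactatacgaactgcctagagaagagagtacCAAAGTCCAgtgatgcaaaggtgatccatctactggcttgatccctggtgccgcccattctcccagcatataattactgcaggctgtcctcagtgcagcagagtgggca
Over the 250 bases before the start, on both strands, it was in 6 of 306 windows of lower genes (1.96%), 0 of 245 windows of higher genes, 29 of 7309 windows of all genes tested (0.397%) and 126 of 32851 in the table (0.384%). The window of Slc3a1 also holds TGANTCA, left in lower case, beginning 140 bases before the start of this gene that fell. These are counts of letters with no test. The lower genes' windows had a median of 7 CpG, the higher genes' 12 and all tested genes' 14.

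Transcription factors of gut identity showed 4 falls and 1 rise in 16 tested, with a median of -0.76. The vitamin D receptor Vdr had 469.8 to 1562 (median 716) in WT and 79.4, 148, 25, 136 and 187 in carcinoma. It was 7.57-fold lower (-2.92 ± 0.39, adjusted p = 0.00031) on 1 of 2 probe sets, the other differing by -0.55. Nr5a2, a nuclear receptor of crypts and bile acid control, had 532 to 923 (median 633) in WT and 223, 118, 246, 164 and 139.9 in carcinoma (-1.93 ± 0.27, adjusted p = 0.000444). The groups lay apart on both probe sets. Foxa1 rose. It had 253 to 573 (median 346) in WT and 1076, 1238, 1359, 1219.6 and 1032 in carcinoma (1.63 ± 0.27, adjusted p = 0.00162). Gata4 (-1.49 ± 0.39) and Rxra (-1.03 ± 0.30) passed with overlap. Without WT 2, 3, 4 or 5 or carcinoma 1 or 4 both lost their calls, which left 2 falls, and without WT 5 the rises were 2. In this list 2 falls and 1 rise passed without WT 1, 2, 4 and 5 together, and with the Gapdh ratio in the fit 2 and 0, where Foxa1 differed by 1.35 (adjusted p = 0.28) and Nr5a2 by -1.81 (0.11).

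Several antigen presentation genes fell. Of 16 class I genes tested, 6 fell and 0 rose, with a median of -0.53. B2m, which all class I molecules carry as their light chain, had 2771 to 5315 (median 3424) in WT and 1022, 1467, 823, 879 and 898 in carcinoma. Every carcinoma array was below every WT array (3.6-fold, -1.85 ± 0.27, adjusted p = 0.000564). The immunoproteasome subunit Psmb9 had 813 to 1341 (median 1125) in WT and 219, 150.1, 238, 45.6 and 308 in carcinoma (-2.70 ± 0.40, adjusted p = 0.000701). Psmb8, Psmb10 and the peptide transporter Tap1 fell, differing by -2.05 ± 0.36, -1.30 ± 0.34 and -1.15 ± 0.29, the calls for Psmb10 and Tap1 being lost without WT 2 or 4 or carcinoma 2, 3 or 4. The class I heavy chain H2-Q1, whose family has close copies, fell by 2.12 ± 0.47. Of 13 class II genes, 3 fell, with a median of -0.89, and H2-Ab1 had 319 to 952 (median 705) in WT and 46.7, 112, 20.7, 156 and 287 in carcinoma (-2.57 ± 0.47, adjusted p = 0.00284). The class II count became 1 without WT 1, WT 2, WT 4 or carcinoma 4. Of 28 interferon-induced genes, 3 fell and 1 rose, with a median of -0.41. Ifitm3, an antiviral membrane protein, had 185 to 541 (median 325) in WT and 1215, 1345, 1416, 1758 and 3647 in carcinoma (2.48 ± 0.36, adjusted p = 0.000609), and Irf8 fell by 1.32 ± 0.29. The summed intensity of 40 T, B and plasma cell markers, which are other carriers of these genes, ran from 7071 to 11816 in WT and from 5020.8 to 10405 in carcinoma, with overlap. Of 33 such markers tested 29 were lower in carcinoma on the deposited scale, 4 of them past the threshold, and immunoglobulin genes fell too, as given below with other cell types. The part of these cells was not tested. Without WT 1, 2, 4 and 5 together 1 fall in class I and 0 in class II passed, and with the Gapdh ratio in the fit 1 and 0. In the Gapdh fit B2m still differed by -1.92 (adjusted p = 0.081), Psmb8 by -1.88 (0.26) and H2-Ab1 by -2.97 (0.12), and without WT 1, 2, 4 and 5 together by -1.49 (0.048), -1.56 (0.080) and -1.80 (0.25). Among interferon-induced genes 2 rises and 0 falls passed without these WT arrays, and 0 and 1 in the Gapdh fit.

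Some goblet cell genes fell. Of 16 goblet cell genes tested, 5 fell and 1 rose, with a median of -0.94, and the summed intensity of 17 ran from 117034 to 223641 in WT and from 33782 to 80099 in carcinoma. The mucus protein Clca1 had 27730.3 to 53642 (median 33987) in WT and 3134, 5443, 2835, 1927 and 1586 in carcinoma. The groups lay far apart (13.5-fold, -3.76 ± 0.33, adjusted p = 4.84e-06), and its second probe set fell by 1.43. The mucus granule lectin Zg16 had 7454 to 19260.1 (median 9289) in WT and 1952, 2832, 1820.2, 804 and 249 in carcinoma (9.08-fold, -3.18 ± 0.53, adjusted p = 0.00158). Carcinoma 5 was lowest. Fcgbp, which binds to mucin, fell, differing by -1.89 ± 0.31, and the membrane mucin Muc3 by -2.31 ± 0.33. Tff3, the trefoil peptide of goblet cells, differed by -1.505 ± 0.45, adjusted p = 0.0555. The stomach trefoil Tff2 rose by 3.35 ± 0.83, with 23.7 on carcinoma 1 and 532 to 3778 on the others. This 10.2-fold rise lost its call without carcinoma 2, 3 or 4 and was 4.32 on the log2 scale without carcinoma 1, and without WT 5 a second goblet gene rose. Without WT 1, 2, 4 and 5 together 2 goblet genes fell and Zg16 differed by -2.78 (adjusted p = 0.14), and with the Gapdh ratio in the fit 1 fell.

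Paneth cell and Reg genes went both ways, with 2 higher and 2 lower in 13. Reg3a, an antimicrobial lectin, was the largest fall of all. It had 1336 to 6388 (median 4327) in WT and 122, 141, 74.5, 54.9 and 21.5 in carcinoma. WT 2 and 6 were the low WT arrays and still lay far above carcinoma (40.7-fold, -5.35 ± 0.46, adjusted p = 4.34e-06). The second probe set of this gene family member fell by 2.82 ± 0.33. Guca2b, a peptide that drives fluid secretion and is not particular to Paneth cells, fell by 2.47 ± 0.51. Mmp7 and Pla2g2a rose as given above. Lyz2, the lysozyme of macrophages, which stands in their list too, overlapped and did not pass (0.35 ± 0.53, adjusted p = 0.734). Of 18 enteroendocrine genes, 4 fell and 0 rose, with a median of -0.78. The granule protein Chgb had 2729 to 5502 (median 4021) in WT and 1417, 1486, 1305, 438 and 568 in carcinoma (-2.06 ± 0.36, adjusted p = 0.00234). Chga, Pcsk1 and Ddc, which serve hormone storage, prohormone cutting and serotonin synthesis, fell, differing by -1.86 ± 0.43, -1.60 ± 0.28 and -1.30 ± 0.28. Syp and Iapp, markers of such cells, lay at the floor on all 11 arrays. Without WT 1, 2, 4 and 5 together 2 enteroendocrine genes fell, and with the Gapdh ratio in the fit 0. The tuft cell gene Avil, an actin regulator, rose by 2.66 ± 0.57, alone among 6. In the Paneth cell list 2 rises and 1 fall passed without WT 1, 2, 4 and 5 together, and 0 and 1 with the Gapdh ratio in the fit, where the call for Avil was lost too.

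Markers of cells beside the epithelium moved in part. Among 11 mast cell genes, 3 rose and 0 fell. The mucosal mast cell proteases Mcpt1 and Mcpt2, close copies of each other, had 16.4 to 370.0 (median 58.1) and 20.6 to 138 (median 62.3) in WT. Mcpt1 had 1472, 889, 1796, 973 and 1575 in carcinoma (15.2-fold, 3.93 ± 0.48, adjusted p = 0.000147), and Mcpt2 had 1564, 548, 1415, 594 and 973 (13.3-fold, 3.73 ± 0.38, adjusted p = 2.25e-05). Both were above WT on every carcinoma array, and the carboxypeptidase Cpa3 rose by 1.56 ± 0.35 with overlap. The defining mast cell receptors Kit (-0.55 ± 0.40, adjusted p = 0.433) and Fcer1a (0.27 ± 0.40, adjusted p = 0.73) did not pass, and Mcpt4 and Tpsab1 lay at the floor on all 11 arrays. The call for Mcpt1 was lost with the Gapdh ratio in the fit (3.60, adjusted p = 0.063). Among 35 fibroblast and matrix genes, 5 rose and 0 fell, with a median of 0.23. They were the collagens Col4a1 (1.48 ± 0.28), Col18a1 (1.35 ± 0.27), Col5a2 (1.75 ± 0.36) and Col1a1 (1.41 ± 0.25, on 1 of 2 probe sets, the other differing by -1.06) and fibronectin (Fn1, 1.40 ± 0.32). Falls in this list numbered 2 without WT 6 and 1 without WT 4 or carcinoma 4. Their summed list ran from 15004 to 25031 in WT and from 22375 to 39018 in carcinoma. Of 33 T, B and plasma cell genes, 4 fell and 0 rose, with a median of -0.55. The plasma cell gene Jchain had 407 to 1069 (median 669) in WT and 271, 127, 173, 138 and 186 in carcinoma (-1.96 ± 0.30, adjusted p = 0.000773). The immunoglobulin genes Igha and Igkv6-23 fell, differing by -4.49 ± 0.59 and -4.78 ± 0.53. The leukocyte antigen Ptprc did not pass (-0.68 ± 0.39, adjusted p = 0.309). The 4 falls became 2 without WT 2, WT 4, WT 5, carcinoma 1 or carcinoma 4, 1 without carcinoma 2 or carcinoma 3, and 0 without WT 1, 2, 4 and 5 together. With the Gapdh ratio in the fit 1 mast cell rise, 0 fibroblast rises and 0 T, B and plasma cell falls passed, and without WT 1, 2, 4 and 5 together 3 mast cell and 3 fibroblast rises did. Igha was not in that list, and its difference was -5.12 without carcinoma 1, -4.12 (adjusted p = 0.057) without WT 1, 2, 4 and 5 together and -3.80 (0.11) in the Gapdh fit, where Igkv6-23 differed by -3.59 (0.063).

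Of 30 macrophage and neutrophil genes, 0 passed (4 were higher and 5 lower at an unadjusted p of 0.05, limma), and Itgam and Marco lay at the floor. Smooth muscle genes fell in 3 of 14, among them Myh11 (-2.76 ± 0.39) and Acta2 (-1.94 ± 0.45), and neuron and glia genes in 4 of 12, among them Ncam1 (-1.60 ± 0.24). The neuron and glia count became 2 without WT 1, WT 3, WT 4, carcinoma 1 or carcinoma 4. Of 19 endothelial genes 1 rose (5.26%, beside 3.49% over all genes tested), Sox17 (1.79 ± 0.37), also a factor of endoderm. Pecam1 (-0.45 ± 0.28, adjusted p = 0.372) did not pass. The count was 2 without WT 1, WT 2, carcinoma 2 or carcinoma 3. Pancreatic acinar genes, a list for exocrine contamination, fell in 3 of 13 and rose in 1. The acinar sums ran from 12272 to 25832 in WT and from 4893 to 7122 in carcinoma without overlap. That gap rested on Zg16 of goblet cells, since the sums of the other 14 genes ran from 4191 to 8646 in WT and from 2941 to 5832 in carcinoma and overlapped. When WT 1, 2, 4 and 5 were left out together, the smooth muscle, neuron and glia, and acinar falls that passed numbered 2, 2 and 1, and with the Gapdh ratio in the fit 1, 0 and 0. The part of these cells in the epithelial results was not tested.

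**Figure D4:**
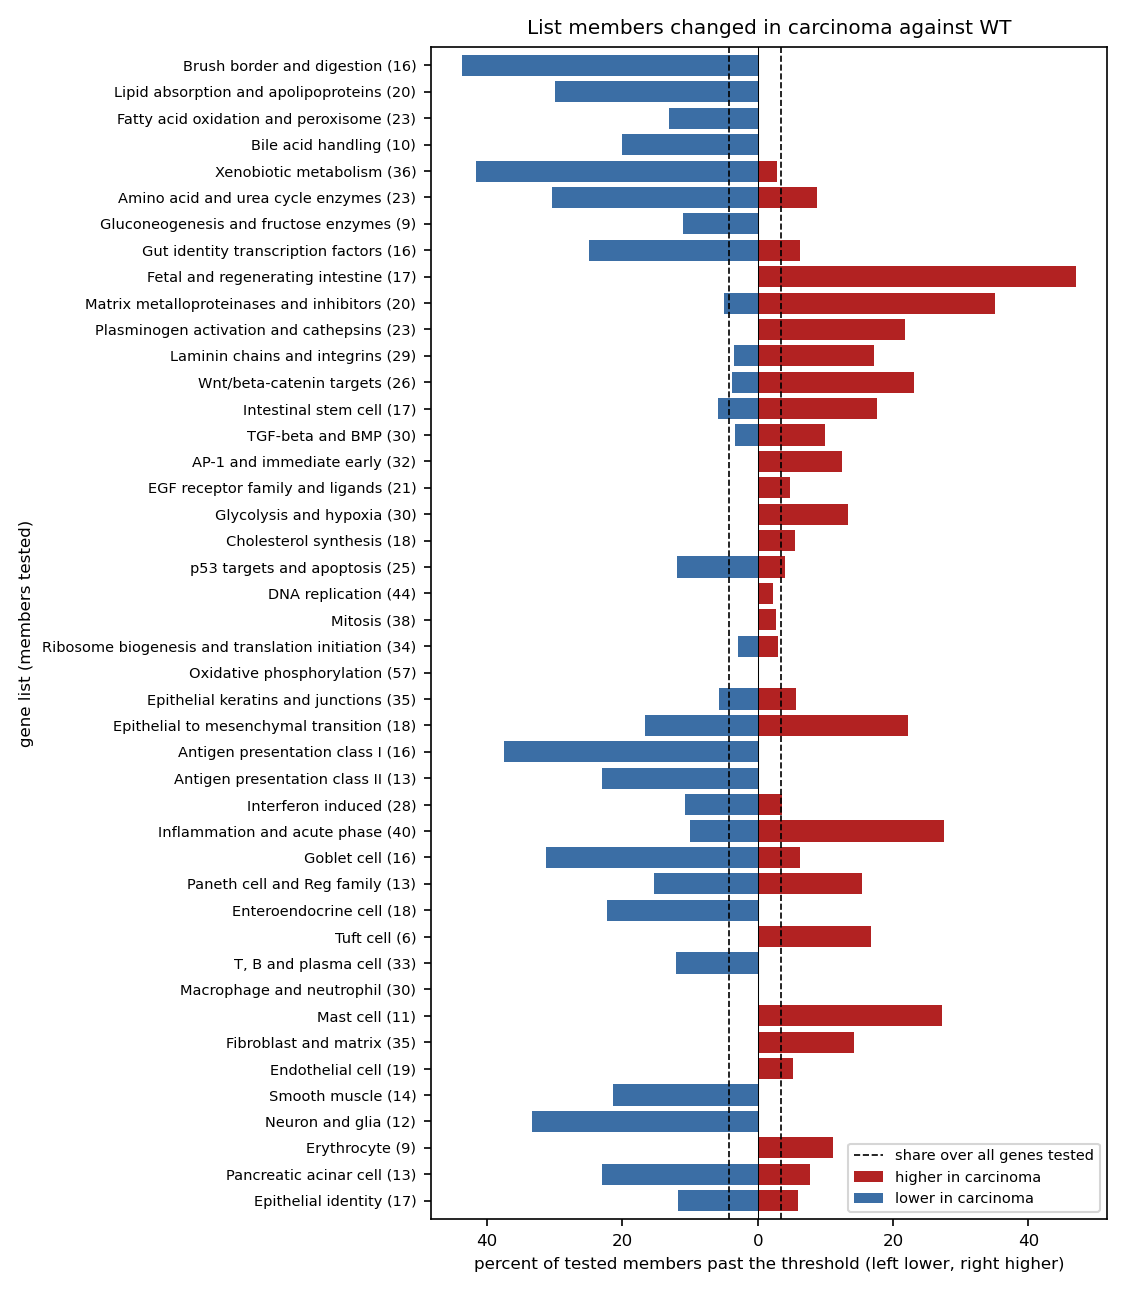
For 44 gene lists, the percent of tested members past the adjusted p of 0.05 (limma), to the right when higher in carcinoma and to the left when lower, with the number of members tested in brackets. Dashed lines mark the shares over all genes tested, 3.49% higher and 4.22% lower. The list of fetal and regenerating intestine reaches 47.1% to the right, and that of the brush border 43.8% to the left. List members were chosen with earlier results of these data known.

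Growth and energy lists held few changed genes, beside 3.49% higher and 4.22% lower over all genes tested. Of 44 DNA replication genes 1 rose, the sliding clamp Pcna (1.11 ± 0.29, adjusted p = 0.0291), with a median of 0.07. Of 38 mitosis genes 1 rose, the checkpoint gene Mad2l1 (1.32 ± 0.33, adjusted p = 0.0224), with a median of 0.16. The median over all genes was -0.12. At an unadjusted p of 0.05 (limma), 6 replication genes were higher and 1 lower, and 8 mitosis genes were higher and 0 lower. Of all 7084 genes tested, 1608 passed that unadjusted threshold in either direction. The call for Pcna was lost without WT 2 or 4 or carcinoma 1, 2 or 4, and that for Mad2l1 without carcinoma 2 or 3. Of 34 ribosome biogenesis genes, the snoRNA-binding Nhp2 rose (1.81 ± 0.32) and the RNA polymerase I subunit Polr1b fell (-0.95 ± 0.26, held only with all arrays or without WT 6 or carcinoma 5). None of 57 oxidative phosphorylation genes passed in limma (0 higher and 6 lower at an unadjusted p of 0.05), with a median of -0.31 that was 0.01 with array medians aligned. Of 18 genes listed for cholesterol synthesis 1 rose, Fads1 (0.99 ± 0.24), with a count of 4 without WT 4 and 0 without carcinoma 2 or carcinoma 5. Fads1 is a fatty acid desaturase and no enzyme of cholesterol synthesis, and the number tested includes it. Of 25 p53 and apoptosis genes, 1 rose and 3 fell, with a median of -0.32. The stress sensor Sesn1 fell. It had 406 to 1205 (median 929.6) in WT and 165, 162, 185, 114 and 67.4 in carcinoma (-2.69 ± 0.34, adjusted p = 0.000238). The inflammatory caspases Casp1 and Casp4 fell, differing by -1.57 ± 0.30 and -1.48 ± 0.30. The executioner caspase Casp6 rose by 3.14 ± 0.70, with WT arrays from 16.5 to 1270, and by 3.73 on the log2 scale without WT 3. Of 35 keratin and junction genes tested, 2 rose and 2 fell (5.71% each), near the shares over all genes tested. Besides Gja1, the tight junction gene Cldn4 rose (2.04 ± 0.51, lost without carcinoma 4 or carcinoma 5). Cldn6 fell (-1.76 ± 0.33), and the keratin of mature surface cells, Krt20, fell (-1.22 ± 0.31), lost without WT 1, 2 or 4 or carcinoma 2, 3 or 4. Of 18 genes of epithelial to mesenchymal transition, 4 rose and 3 fell, with the factor Twist2 lower (-1.45 ± 0.27). With the Gapdh ratio in the fit 0 genes passed in the lists of replication, mitosis, ribosome biogenesis, cholesterol synthesis, p53 and apoptosis, junctions and mesenchymal transition, with Sesn1 at -2.27 (adjusted p = 0.10) and Casp6 at 3.51 (0.28). When WT 1, 2, 4 and 5 were left out, 1 p53 and apoptosis fall passed, the difference of Casp6 was 1.21 (adjusted p = 0.39), and in mesenchymal transition 3 rises and 1 fall passed.

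Carcinoma and adenoma were set against each other with all 16 arrays in the fit, above a floor of 46.9. Of 7455 genes tested, 1 changed (0.0134%), and 186 had an unadjusted p under 0.05. It was S100g, the calcium-binding protein of calcium uptake. Its intensities were 2413, 1982, 544, 1486 and 1601 on adenoma arrays 1 to 5 and 114, 27.6, 63.6, 95.5 and 249.9 on carcinoma arrays. The groups did not overlap, and carcinoma was lower, differing by -3.91 ± 0.46 (adjusted p = 0.000682). A second S100g probe set ran from 1662 to 8068 in adenoma and from 75.3 to 631 in carcinoma. On the probe set used WT had 41.1 to 161 (median 96.8), and carcinoma differed from it by 0.08 ± 0.42, adjusted p = 0.935. On the second WT ran from 4.9 to 142, overlapping with carcinoma, and the difference was 1.38 ± 0.52 (adjusted p = 0.135, unadjusted p = 0.0193, limma over all probe sets tested). None of the 30 genes with the largest changes against WT passed between carcinoma and adenoma, where their differences ran from -2.45 to 1.89 (lowest adjusted p = 0.241). Saa3 had the highest of these, with 864, 1064, 1304, 1025 and 1542 in adenoma and the carcinoma values given above. These groups did not overlap either, but the difference of 1.89 ± 0.40 did not pass (adjusted p = 0.241). Clu had 11256, 12909, 10439, 11120.4 and 10154 in adenoma, within the range of carcinoma. Otc had 1083, 445, 759, 460.5 and 725 in adenoma, where carcinoma 1, at 606, lay among them (-4.91 was its difference from WT in carcinoma and -3.47 in adenoma). The comparisons of both tumours with WT share the WT arrays, so their values stand side by side and are not independent. S100g kept its call in every setting, while the count of changed genes was 16 with array weights and 3 with the floor at the 40th percentile.

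**Figure D5:**
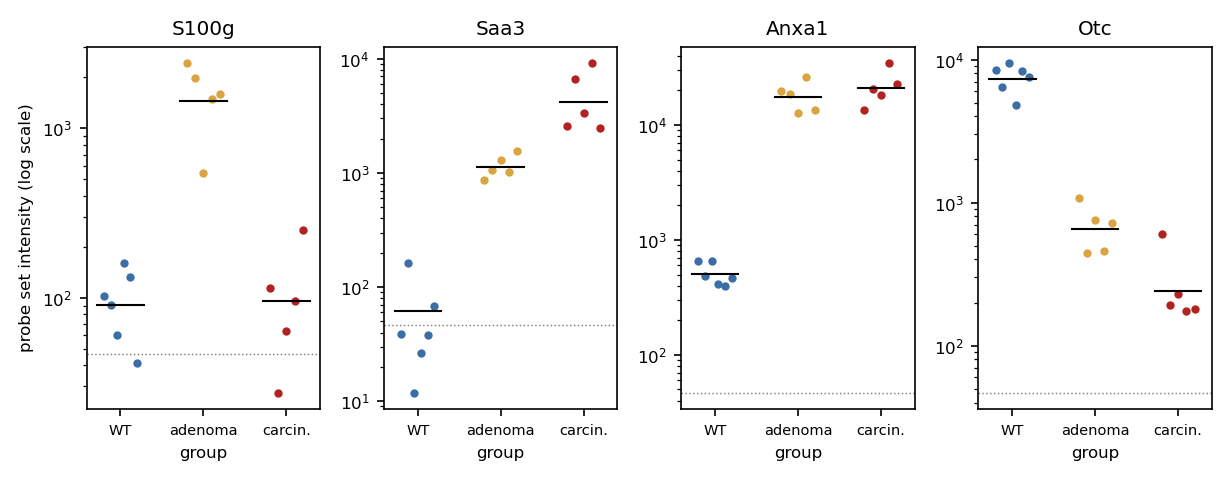
Deposited intensities of S100g, Saa3, Anxa1 and Otc on a log scale for 6 WT, 5 adenoma and 5 carcinoma arrays, with the mean of floored log2 values as a bar and the floor of 46.9 dotted. On the probe set plotted S100g is high only in adenoma (544 to 2413), Saa3 is highest in carcinoma, Anxa1 is level between the tumours, and Otc is low in both.

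All 30 genes of the plot of the largest rises and falls kept their calls when any 1 of the 11 arrays was left out. Without WT 1, 2, 4 and 5 together 27 did, the exceptions being Apoa1, Cps1 and Zg16. With the Gapdh ratio in the fit 23 did, the exceptions being Foxq1, Mcpt1, Apoa1, Scin, Fabp2, Cps1 and Zg16. Of the 142 changed genes that the naming rule picked, 104 kept their calls without any 1 array, 72 without WT 1, 2, 4 and 5 together and 37 with the Gapdh ratio in the fit, and none changed direction in any setting. The remaining large falls were in Ocm (16.5-fold), a calcium-binding protein of the parvalbumin kind, the ubiquitin protease Usp2 (14.98-fold) and the actin-severing protein Scin (11.1-fold). The median size of the log2 difference over the 142 genes was 1.96 as reported, 1.90 without these WT arrays and 2.10 with the Gapdh ratio.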

How the data were processed

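Expression was measured on Affymetrix MG_U74Av2 arrays. The authors deposited 1 linear signal intensity per probe set and array, which the file gives with no log and no value below 0; the sources used here name neither the software that made it nor its scaling. Per the labels, RNA went through laser capture, 2 rounds of amplification, labelling with an Enzo kit and hybridisation, by the makers' protocols. Intensities under the 25th percentile of the 11 arrays (49.2) were raised to it and log2 was taken, with no further normalization. Probe sets with several or no gene symbols were left out, the probe set of highest mean stood for a gene, and genes above the floor on at least 5 arrays were kept. A gene could thus pass through the arrays of 1 group: 4 tested genes were at the floor on every WT array and 36 on every carcinoma array. The model was fitted with limma 3.58.1 in R 4.3.3 over the 11 arrays (9 residual degrees of freedom), two-sided, with Benjamini-Hochberg adjustment; carcinoma against adenoma used all 16 arrays (13 degrees of freedom, floor 46.9). Nothing says that arrays of a group came from separate animals, so p-values measure the spread between arrays. The array number limits the precision. The scripts were tested on simulated data. Members and gene lists were chosen with earlier results of these data known. Named were the 15 largest rises and 15 largest falls without immunoglobulin segments or unnamed clones, up to 4 changed genes of smallest p per list and direction, and marker genes; 18 further genes, among them Plaur, Cyp3a11 and Igha, were named after their values were seen. Alternatives changed the scaling, floor, filter, probe set rule, fit, covariates and arrays.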

Additional observations from a re-analysis of the deposited data

Results flagged for a closer look

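Of 329 groups of arrays of the named genes and control measures, 27 (8.21%) held 1 array far from the rest of its group by Dixon's test, where chance gives about 1 in 20. In 7 of these the other arrays of the group were all at the floor, so that any value above it stood apart by construction; among the remaining 322 groups 20 (6.21%) held such an array, near that share. The 7 were Cpa3 in WT and, in carcinoma, Sult1d1, Sycn, Slc1a1, Nos2, Cd160 and Aqp1. All values are log2 intensities after the floor of 5.62. Of genes higher in carcinoma, WT 2 was highest for Saa3 (7.35) and WT 5 for Ctse (7.01) and Mmp14 (10.20), WT 4 was highest for Cpa3 (7.33) and Slc2a1 (6.55), and the lowest arrays were WT 3 for Mmp13 (5.62) and WT 5 for Ctsl (5.62), both at the floor. In carcinoma, array 1 was lowest for Fst (8.43), array 2 for Il1rn (7.69) and array 4 for Ddit4 (11.62). Of genes lower in carcinoma, WT 6 was lowest for Usp2 (9.54) and Polr1b (10.88), WT 1 for Aqp1 (6.23) and WT 4 for Acta2 (9.34) and Actc1 (7.92), while WT 4 was highest for Slc51a (11.63). On the carcinoma side, array 1 was highest for Otc (9.24), Sult1d1 (6.81) and Sycn (6.87), array 2 for Aqp1 (6.93) and Slc2a5 (6.83), and array 3 for Ocm (7.57) and Slc1a1 (5.94). Array 4 was highest for Nos2 (6.32), Relb (8.66) and Pcsk1 (6.71), and array 5 for Cd160 (5.85).

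S100g differed between the tumours by -3.91, while against WT carcinoma differed by 0.08 on the probe set used and by 1.38 (adjusted p = 0.135) on the other. Probe sets with no or several gene symbols were not used for genes. Of 1148 tested in the same way, 100 changed (27 higher and 73 lower), and 275 had an unadjusted p under 0.05.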

How the results depend on the processing

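No changed gene named in the text turned its direction in any of 25 alternatives, and at most 2 of the 546 changed genes did, when probe sets were averaged. The count of 546 (247 higher, 299 lower) became 61 (36 and 25) when the Gapdh ratio entered the fit, 186 (96 and 90) with the spike-in signal there instead and 182 (98 and 84) without WT 1, 2, 4 and 5 together. These 4 arrays were chosen by their spike-in signal, and 2 WT arrays stayed. With array medians aligned 447 were higher and 177 lower. With the replicate block 830 changed (386 higher, 444 lower). The correlations of same-numbered arrays' deviations were 0.099, -0.015, 0.2499, 0.095 and 0.415 for numbers 1 to 5, and only carcinoma 3 and 5 correlated best with their own number, so the number was not taken as a pairing. Without 1 array the count ran from 380 to 622, with 165 to 264 higher and 205 to 358 lower. Fits with other floors, filters, probe set rules, normalization, weights or variance models gave 467 to 704. The causes were not tested.

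Between carcinoma and adenoma the 1 changed gene became 16 with array weights, 3 with the floor at the 40th percentile, 3 when probe sets were averaged, 2 with spike-in signal in the fit and 2 with a variance trend and robust estimation. Without 1 array it was 1 to 3, the 3 being without WT 2. Of the control measures, leaving out 1 array moved the spike-in difference between -1.77 and -1.32 (log2), the Gapdh ratio between 0.994 and 1.37 (log2), the median signal between -47.7 and -31.2 and the 25th percentile between -19.3 and -12.4. Their adjusted p reached 0.0655. Signals near the floor limit the fold changes of dim genes. The 3' to 5' ratios were read from 2 genes alone, in RNA amplified in 2 rounds, and cannot be read as degradation alone.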
